A study of Homo sapiens with 6 samples.

Results

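The FAT and Dachsous cadherins are very large cell-surface proteins built from long arrays of cadherin repeats. FAT1, FAT2, FAT3 and FAT4 belong to the FAT group, and DCHS1 and DCHS2 to the Dachsous group. These 6 genes were taken out of the 20056 coding genes of the RefSeq table by name. FAT1 was chosen by its many peaks in every list, so its peak counts below describe that choice and support nothing. Every N6-methyladenosine (m6A) peak that touched 1 of the 6 RefSeq gene bodies (GRCh38.p14) was counted as theirs. That gave 46 of 17375 peaks, with 8 of 2736 in the shTRA2A list, 12 of 5433 in the shMETTL3 list and 26 of 9206 in the control list.

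The peaks came from methylated RNA immunoprecipitation sequencing, which sequences the RNA fragments bound by an m6A antibody and, as a separate library, the RNA before binding. All cells were U-251 MG, a human glioblastoma line, grown in the same serum-containing medium. They carried a short hairpin RNA against TRA2A (shTRA2A), a splicing regulator, against METTL3 (shMETTL3), the catalytic subunit of the m6A writer, or the control hairpin shNC. Each of the 3 conditions had 1 immunoprecipitated library, 1 input library and 1 peak list, and the labels name 1 hairpin label per target. No difference below has a replicate check, no test between conditions was made, and the peak lists do not give read depth. Peak lists hold no transcript levels, so neither the reduction of the 2 targets nor the identity of the cells was checked here. A gene without a peak cannot be told apart from a gene with too little RNA for a peak to be called.

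As background, FAT4 and DCHS1 bind each other between neighbouring cells, and in Drosophila the Fat and Dachsous pair sets planar cell polarity and feeds into the Hippo growth pathway. FAT1 is known for roles at cell contacts and in actin organisation, and is altered in several cancers. METTL3 deposits m6A mostly in long internal exons and near stop codons, and FAT1 is a gene with unusually long internal exons. Which exon a peak lies in was not examined here, because gene bodies alone were used.

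Peaks were found in 2 of the 6 genes. FAT1 (4:186587794-186726696, 138903 nt, minus strand) had 8 shTRA2A, 9 shMETTL3 and 21 control peaks. FAT4 (4:125314955-125492932, 177978 nt) had 0 shTRA2A, 3 shMETTL3 and 5 control peaks. FAT2 (5:151504092-151594819), an epithelial FAT cadherin, FAT3 (11:92224818-92896473), known from neurons, DCHS1 (11:6621330-6655809), a ligand of FAT4, and DCHS2 (4:154231742-154491799) had 0 peaks in every list. Over all coding genes, 9.54% had an shTRA2A peak, 17.1% an shMETTL3 peak and 21.9% a control peak.

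By number of peaks FAT1 shared the first place with 3 other genes in the shTRA2A list, where 4 genes had 8 peaks and none had more. It was at rank 4 in the shMETTL3 list, together with 2 other genes, and at rank 4 alone in the control list. FAT4 was at rank 217 in the shMETTL3 list, a rank shared by 261 genes, and at rank 235 in the control list, shared by 154 genes. All 38 FAT1 peaks were on the minus strand, which is the strand RefSeq gives for FAT1, and all 8 FAT4 peaks were on the plus strand. No FAT1 peak reached either of the 2 windows around the FAT1 starts in the RefSeq promoter table.

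FAT1 peaks lay in 8 stretches when peaks of all lists less than 2 kb apart were joined, a distance chosen after the positions were seen. Exon positions were not used, so whether the peaks group beyond the layout of the exons was not tested. Control peaks occurred in all 8 stretches, shMETTL3 peaks in 5 and shTRA2A peaks in 4. The stretch nearest the 5′ end and the fourth stretch held 6 of 8 shTRA2A peaks (75%), 6 of 9 shMETTL3 peaks (66.7%) and 11 of 21 control peaks (52.4%). These were the 2 stretches with the most peaks, so their shares describe that choice. The other stretches lay between the fourth and the 3′ end of the gene, apart from 2 at 89.8 to 98.5 kb from the 5′ end.

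**Figure D1:**
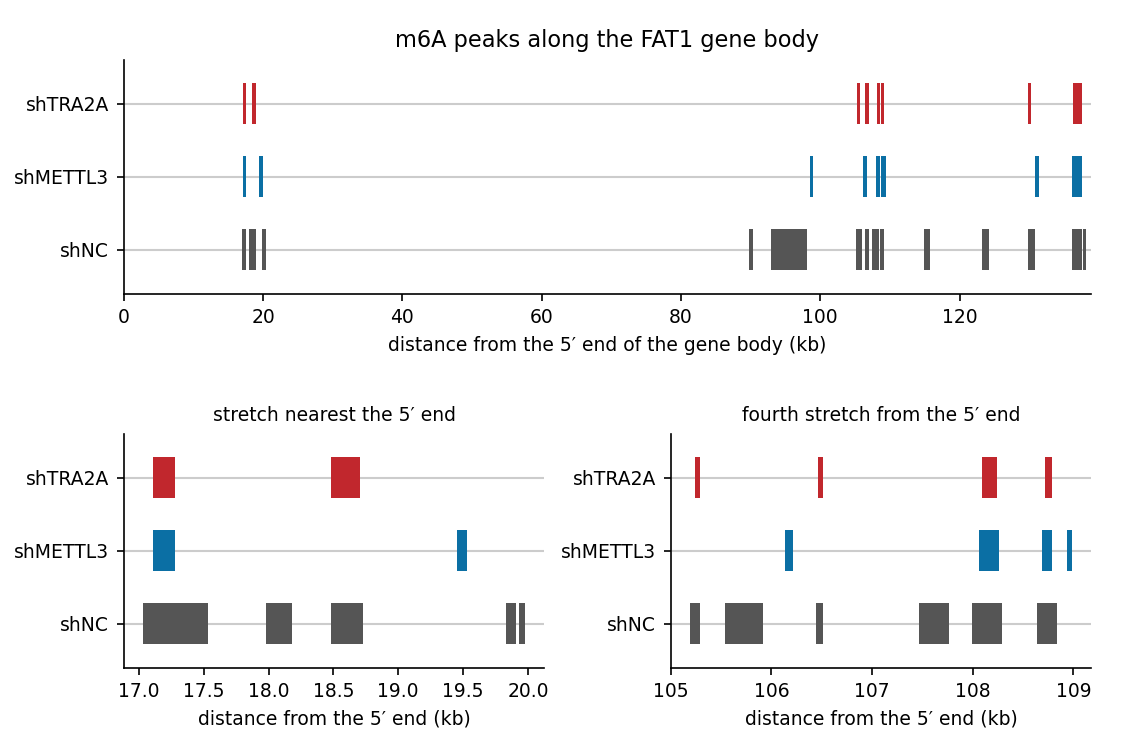
Position of every FAT1 peak in the shTRA2A, shMETTL3 and shNC lists, as distance in kb from the 5′ end of the gene body, with narrow peaks widened in the upper panel so that they can be seen and drawn to scale in the lower panels. The lower panels enlarge the stretch nearest the 5′ end and the fourth stretch, where each of the shTRA2A blocks stands above a control block and some shMETTL3 blocks stand beside one.

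Each peak has a score from the authors' peak caller. Its scale is not stated, so its size is used within a list alone, beside the share of peaks of that list with a lower score. That share depends on the length of the list, 2736, 5433 or 9206 peaks, so it does not compare strength between lists. The stretch nearest the 5′ end (4:186706716-186709665, 17.0 to 20.0 kb from the 5′ end) held the strongest FAT1 site of the control. There both knockdown lists had a peak with the same ends, 4:186709416-186709590, which scored 7.65 in shTRA2A (above 26.6% of that list) and 12.8 in shMETTL3 (above 83.4%). It lay inside the control peak at 4:186709166-186709665, 500 nt wide, with a score of 65.1, above 98.3% of the control list. The site was thus in the lower part of the shTRA2A list, the shortest, at rank 2003. It was in the upper part of the shMETTL3 list, at rank 902, and near the top of the control list, at rank 156.

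At a second site in that stretch the knockdown lists were the other way round. The shTRA2A peak at 4:186707991-186708215 scored 12.8, the best FAT1 peak of that list (above 94.8%), no shMETTL3 peak overlapped it, and the control peak around it at 4:186707966-186708215 scored 26.5 (above 87.1%). The nearest shMETTL3 peak, at 4:186707166-186707240 (score 8.37), was 750 nt from the shTRA2A peak and 300 nt from the nearest control peak. The 3 other control peaks of the stretch, at 186706716-186706765, 186706791-186706865 and 186708516-186708715, had scores of 12.7, 17.6 and 17.5 and were found in neither knockdown list.

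The fourth stretch (4:186617708-186621507) was the richest in peaks, with 4 shTRA2A, 4 shMETTL3 and 6 control peaks over 3800 nt. At 2 sites all lists had a peak. At the first, the peaks were 186618458-186618607 in shTRA2A (score 11.2), 186618433-186618632 in shMETTL3 (7.82) and 186618408-186618707 in the control (26.2). Within their own lists these peaks stood above 90.6%, 37.0% and 86.9% of peaks. At the second they were 186617908-186617982 in shTRA2A (6.78), 186617908-186618007 in shMETTL3 (6.97) and 186617858-186618057 in the control (22.6). At both sites the peak was nested, with the control peak the widest and the shTRA2A peak the narrowest. The second site was near the bottom of both knockdown lists, above 2.81% of shTRA2A and 18.7% of shMETTL3 peaks. In the control it was above 82.3%.

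Another 2 sites of this stretch were shared by shTRA2A and the control without an shMETTL3 peak. The shTRA2A peaks at 186620183-186620232 (score 7.95) and 186621408-186621457 (8.11) lay inside control peaks at 186620183-186620257 (15.4) and 186621408-186621507 (11.7), and each pair shared its lower-coordinate end. The shTRA2A peaks stood above 47.3% and 56.0% of their list, the control peaks above 65.7% and 44.1% of theirs. Conversely, 2 shMETTL3 peaks missed the control peaks. The one at 186617708-186617757 had the best score of all FAT1 peaks in that list, 18.1 (above 93.0%), and lay 100 nt from the nearest control peak. The other, at 186620483-186620557 (8.41), lay 225 nt from one. The control peaks at 186618933-186619232 (score 23.2) and 186620783-186621157 (23.2) were found in neither knockdown list, although both were above 83.1% of the control list.

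Towards the 3′ end, peaks of all lists met at 1 further site. A wide peak about 2 kb from the 3′ end spanned 186589144-186590390 in shTRA2A (score 9.28), 186589144-186590516 in shMETTL3 (7.62) and 186589144-186590541 in the control (21.9). It stood above 80.6%, 31.8% and 81.4% of these lists. The wide peaks shared their lower-coordinate end and were 1247, 1373 and 1398 nt wide, widths that are off the 25 nt grid of most peaks and may cross introns. Next to it, the control peak at 186588744-186588993 (score 20.0) was in neither knockdown list. About 9 kb from the 3′ end, the shTRA2A peak at 186596863-186596912 (8.20, above 59.5% of its list) lay inside the control peak at 186596738-186596937 (20.2, above 78.6%). There the shMETTL3 peak at 186595725-186595799 (10.9) missed the control peak at 186595825-186596637 (13.0) by 25 nt. That control peak, 813 nt wide, is also off the grid and may cross introns.

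The 4 remaining stretches had no shTRA2A peak. In the 2 of them at 89.8 to 98.5 kb from the 5′ end, shMETTL3 had 1 peak, at 186628177-186628226 (score 9.11). The control had a peak 5095 nt wide at 186628675-186633769 (score 30.4, its second best in FAT1), 448 nt from that shMETTL3 peak, and a narrow one at 186636820-186636894 (12.9). The wide one is off the 25 nt grid and may cross introns. At 115 kb the control had peaks at 186611461-186611510 (15.6) and 186611611-186611760 (21.9), and at 123 to 124 kb it had peaks at 186602937-186602986 (10.8) and 186603378-186603477 (12.3). Neither knockdown list had a peak in these last 2 stretches.

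Counted over FAT1, all 8 shTRA2A peaks shared bases with a control peak, while 33.8% of all shTRA2A peaks did. All 8 also lay wholly inside one, a stricter measure that was not counted over all peaks. The exact Clopper-Pearson 95% interval of 8 of 8 is 63.1 to 100%. It covers counting error alone and treats peaks of 1 gene as independent, which they may not be. FAT1 was chosen for its many peaks in every list, which can raise such shares. The FAT1 shares here and below therefore describe that choice and support nothing. Of the 1914 coding genes with an shTRA2A peak, 650 had no control peak, and their peaks count in the 33.8%. Of the 9 shMETTL3 peaks in FAT1, 4 shared bases with a control peak, 44.4% (13.7 to 78.8%), beside 32.7% of all shMETTL3 peaks. These 4 also lay wholly inside a control peak. The 5 others were 25 to 448 nt from the nearest control peak of FAT1. Between the knockdowns, 4 of the 8 shTRA2A peaks in FAT1 shared bases with an shMETTL3 peak, 50% (15.7 to 84.3%), beside 23.8% of all shTRA2A peaks. Seen from the other list that was 4 of 9 shMETTL3 peaks, 44.4%, beside 11.8% of all.

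Seen from the control, 8 of its 21 FAT1 peaks were found in shTRA2A, 38.1% (18.1 to 61.6%), and 4 in shMETTL3, 19.0% (5.45 to 41.9%). Over all control peaks these shares were 9.58% and 17.9%. The 4 FAT1 peaks found in shMETTL3 were all found in shTRA2A as well, so 4 were in both, 4 in shTRA2A alone, 0 in shMETTL3 alone and 13 in neither. The same split was not made over all control peaks, so it cannot be read as particular to FAT1. The comparisons with shTRA2A and with shMETTL3 share the control list. As FAT1 was chosen for many peaks in every list, its shares describe that choice and support nothing. Taken over the FAT1 and FAT4 peaks together, 8 of 26 (30.8%) and 4 of 26 (15.4%) were found. With the 2736 best peaks of every list, equal to the length of the shTRA2A list, these became 6 of 13 (46.2%) and 1 of 13 (7.69%), while 22.1% and 25.5% of all control peaks were found under that limit. With the upper 50% of every list by score they were 4 of 18 (22.2%) and 1 of 18 (5.56%), while 12% and 19.0% of all were found. With regular-width peaks alone (1 block, on the 25 nt grid, at most 1000 nt) they were 7 of 22 (31.8%) and 3 of 22 (13.6%), while 8.22% and 16.4% of all were found. The overlapping shMETTL3 peaks lost by the limits on rank and score were those at 186618433-186618632, 186589144-186590516 and 186617908-186618007, at ranks 3419, 3703 and 4415 of their list.

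FAT1 peaks of the control scored high in their list, with 18 of 21 above the list's median and a median standing above 78.1% of peaks. The 4 found in both lists had scores of 21.9 to 65.1, those found in shTRA2A alone 11.7 to 26.5, and those found in neither 10.8 to 30.4. The ranges overlap, so a high score alone did not separate them. Within the top 20% of the control list by score, where 9 FAT1 peaks lay, 5 were in shTRA2A and 4 in shMETTL3, while 28.2% and 44.2% of all control peaks there were found. In the next 40% FAT1 had 11 peaks, 3 of them found in shTRA2A and 0 in shMETTL3, while all control peaks were found there in 9.61% and 5.59% for shTRA2A and in 21.3% and 13.7% for shMETTL3.

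**Figure D2:**
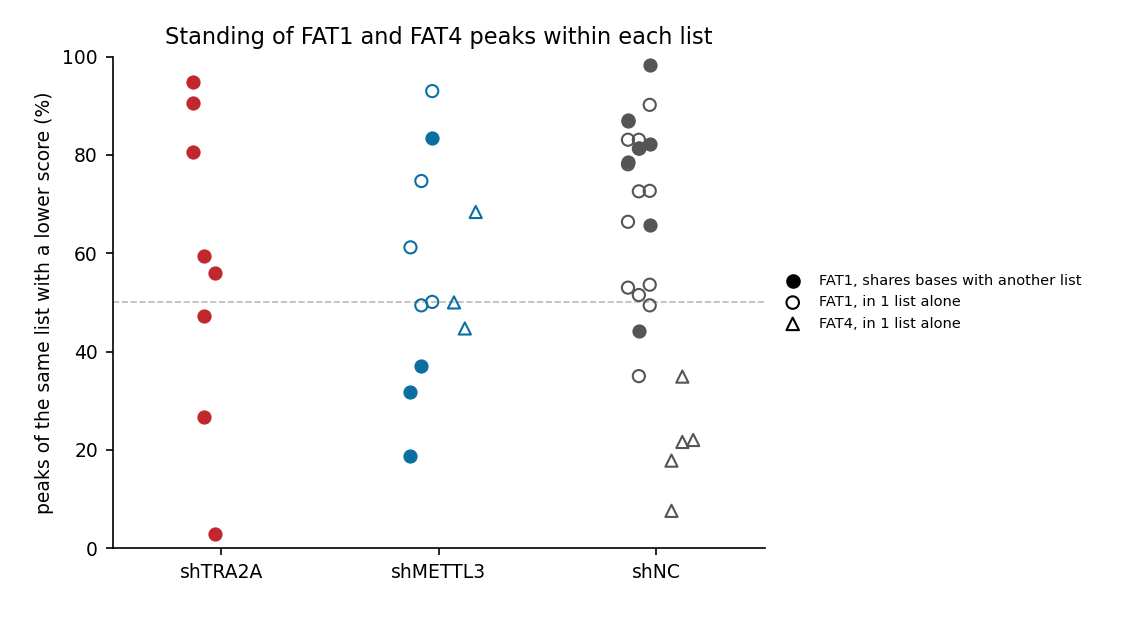
Standing of each FAT1 peak (circles) and FAT4 peak (triangles) in its own list, as the percentage of that list's peaks with a lower score, for shTRA2A, shMETTL3 and shNC. Filled symbols share bases with a peak of another list, and the dashed line marks 50%. FAT1 control peaks sit at 35.0 to 98.3% and FAT4 control peaks at 7.58 to 34.9%, and all shTRA2A circles are filled.

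In the knockdown lists FAT1 peaks stood nearer the middle of their own list. Those lists are shorter than the control list and a standing depends on length, so no loss of strength can be read from it. In shTRA2A 5 of 8 scored above the list's median, with a median standing above 57.8% of peaks, and in shMETTL3 5 of 9 with 50.1%. They were also narrower, with a median width of 112 nt in shTRA2A, 75 nt in shMETTL3 and 200 nt in the control. The median width over all peaks was 100, 100 and 125 nt in these lists.

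Besides FAT1, 10 genes of the coding table had 15 or more control peaks, a minimum chosen after the counts were seen. These 10 were taken on control peaks alone, whereas the many knockdown peaks of FAT1 were part of its choice, so its place among them is a description and supports nothing. Their control peaks were found in shTRA2A in 3.85 to 26.3% of cases (median 18.2%), beside 38.1% for FAT1. In shMETTL3 they were found in 12 to 37.5% (median 26.5%), beside 19.0% for FAT1. The 37.5% is that of TUG1, which the RefSeq table lists as coding but which is best known as a long regulatory RNA. CENPF, a kinetochore protein with 26 control peaks, had the lowest shTRA2A share of the 11, 3.85%, and 34.6% in shMETTL3. VCAN, the matrix proteoglycan versican, with 25% and 20.8%, was the other gene of the 11 with the higher share in shTRA2A. MACF1, a cytoskeletal crosslinker, with 26.3% in each, and BOD1L1, with 17.6% in each, had equal shares. The differences between these genes were not tested.

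**Figure D3:**
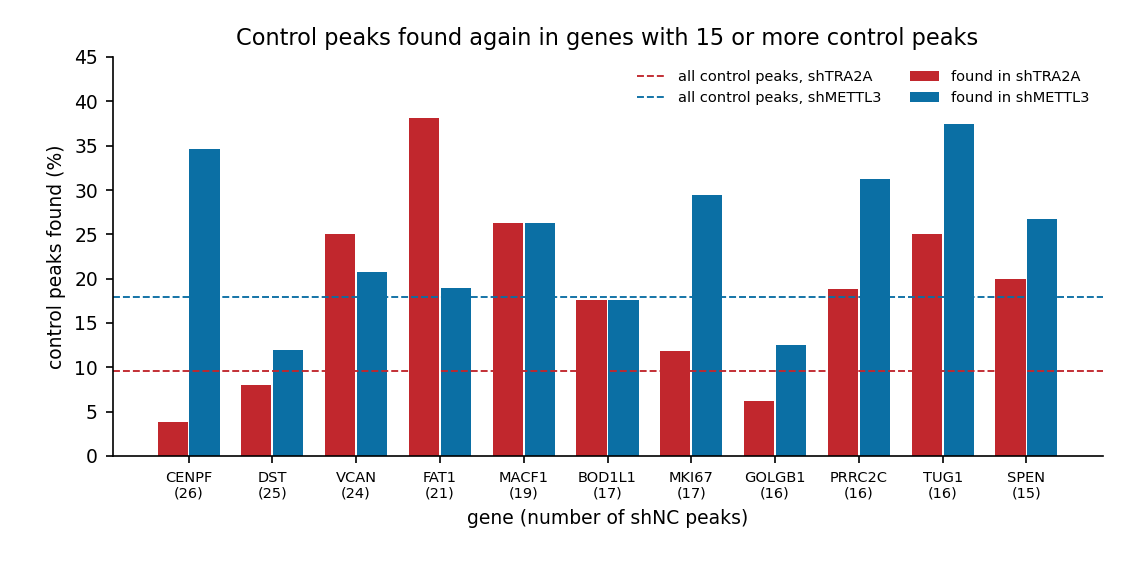
Percentage of control peaks that share at least 1 base with an shTRA2A peak (red) or an shMETTL3 peak (blue) in the 11 coding genes with 15 or more control peaks, whose number stands under each gene. Dashed lines give the shares over all control peaks, 9.58% and 17.9%. FAT1, chosen for many peaks in every list, has a red bar of 38.1% and a blue bar of 19.0%.

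FAT4, the receptor that pairs with DCHS1, had fewer peaks, and none was shared between lists. Its shMETTL3 peaks scored above 44.7 to 68.4% of their list (median 50%), beside a median of 50.1% for FAT1, so the 2 genes differed in standing in the control list and not in the median of the shMETTL3 list. Its 3 shMETTL3 peaks lay 136 to 161 kb from the 5′ end, at 4:125451000-125451049 (score 8.40), 4:125468771-125476171 (8.15) and 4:125476197-125476246 (9.83). The second of these was 7401 nt wide and may cross introns. The 5 control peaks included 3 within 6.50 kb of the 5′ end, at 4:125315880-125316476 (8.57), 4:125320402-125320651 (10.8) and 4:125321252-125321451 (9.71). The other 2 were at 125415185-125415234 (9.41) and, 1.24 kb from the 3′ end, at 125491622-125491771 (9.69). The shortest distance between an shMETTL3 and a control peak of FAT4 was 15375 nt.

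All 5 FAT4 control peaks scored below the median of the control list, above 7.58 to 34.9% of its peaks. Of all control peaks in the lowest 20% by score, which held 2 of them, 0.923% were found in shTRA2A and 2.71% in shMETTL3, and in the next 20%, which held the other 3, 3.53% and 7.66%. Finding 0 of 5 again in either list is therefore close to what all peaks of that score showed. The upper limit of the exact interval for 0 of 5 is 52.2%.

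**Figure D4:**
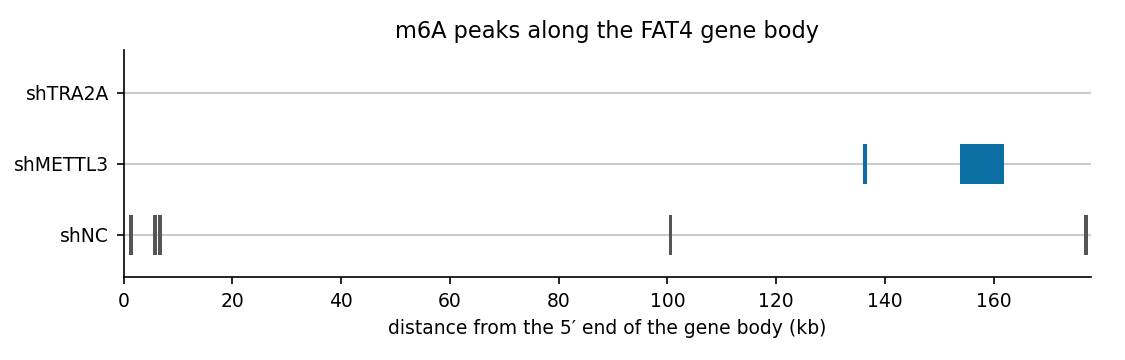
Position of every FAT4 peak in the shTRA2A, shMETTL3 and shNC lists, as distance in kb from the 5′ end of the gene body, with narrow peaks widened so that they can be seen. The shTRA2A row is empty, the shMETTL3 peaks lie between 136 and 161 kb, and 3 of the 5 shNC peaks lie within 6.50 kb of the 5′ end.

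Genes that act with the FAT and Dachsous cadherins were counted from a list of 56 Hippo and planar polarity genes, of which 30 had a control peak. Of these 30, 8 had an shTRA2A peak, 26.7% (12.3 to 45.9%), and 18 an shMETTL3 peak, 60% (40.6 to 77.3%). Over all 4398 coding genes with a control peak the shares were 28.7% and 48.6%, inside both intervals. By the stricter measure of an overlapped control peak the counts were 3 and 9 of 30 genes, 10.0% and 30.0%, beside 15.8% and 28.3% of all genes. With the upper 50% of every list by score, 3 and 8 of 22 genes had a peak, 13.6% and 36.4%, beside 24.4% and 41.8% of all coding genes with a control peak. Of regular-width peaks alone 5 and 14 of 26 genes had a peak, 19.2% and 53.8%, beside 23.3% and 42.7% of all. With the 2736 best peaks of every list 6 and 8 of 18 genes had one, 33.3% and 44.4%, beside 42.8% and 49.2% of all.

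In the order of the pathway, FJX1, whose Drosophila relative Four-jointed is a Golgi kinase acting on Fat and Dachsous, had 0 shTRA2A, 0 shMETTL3 and 2 control peaks. ENAH, an actin regulator of the Ena/VASP family, had 0, 0 and 1 peaks in shTRA2A, shMETTL3 and shNC, its control peak with a score of 77.5. The atrophins ATN1 and RERE, relatives of a Drosophila partner of Fat, had peaks in every list, ATN1 with 2, 2 and 2 and RERE with 1, 2 and 3. None of the control peaks of ATN1 and RERE was overlapped by a knockdown peak.

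Among planar polarity genes, PRICKLE1 had 0 shTRA2A, 5 shMETTL3 and 11 control peaks, with 3 control peaks overlapped in shMETTL3. Its peaks lay on both strands, 7 plus and 9 minus, so some may belong to another transcript. PRICKLE2, with 0, 4 and 4 peaks, was likewise mixed in strand, and VANGL1, a core polarity membrane protein, had 0, 1 and 3. Of their control peaks, 2 of PRICKLE2 and 1 of VANGL1 were overlapped in shMETTL3. As 22 of the 30 genes had no shTRA2A peak, its absence in these 3 is nothing particular to them.

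In the Hippo kinase cascade, MAP4K4, an upstream kinase, had 1 shTRA2A, 2 shMETTL3 and 3 control peaks (best control score 60.1), with 2 control peaks overlapped in shMETTL3. LATS1 and LATS2, the kinases that phosphorylate YAP, differed, with 0, 0 and 3 peaks for LATS1 and 0, 5 and 3 for LATS2, of which 2 control peaks were overlapped in shMETTL3. STK4, the kinase MST1, had 0, 0 and 1, and its scaffold SAV1 had 1, 0 and 1, with the control peak overlapped in shTRA2A. AMOTL1, which binds YAP, had 0, 0 and 2 peaks with a best control score of 28.8, and its relative AMOTL2 had 2, 1 and 4. CCN2, a target gene of YAP, had 2, 0 and 2, with 1 control peak overlapped in shTRA2A. The CCN2 peaks lay on both strands, 1 plus and 3 minus, so some may belong to another transcript. CDC42EP3, a CDC42 effector, had 1, 2 and 2, with 1 control peak overlapped in shTRA2A and both in shMETTL3. Of the 30 genes, SAV1, CCN2 and CDC42EP3 are the 3 with a control peak overlapped in shTRA2A, and the 9 with one overlapped in shMETTL3 are VANGL1, PRICKLE1, PRICKLE2, MAP4K4, LATS2, CDC42EP3, HOMER1, WWC2 and TAOK3.

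**Figure D5:**
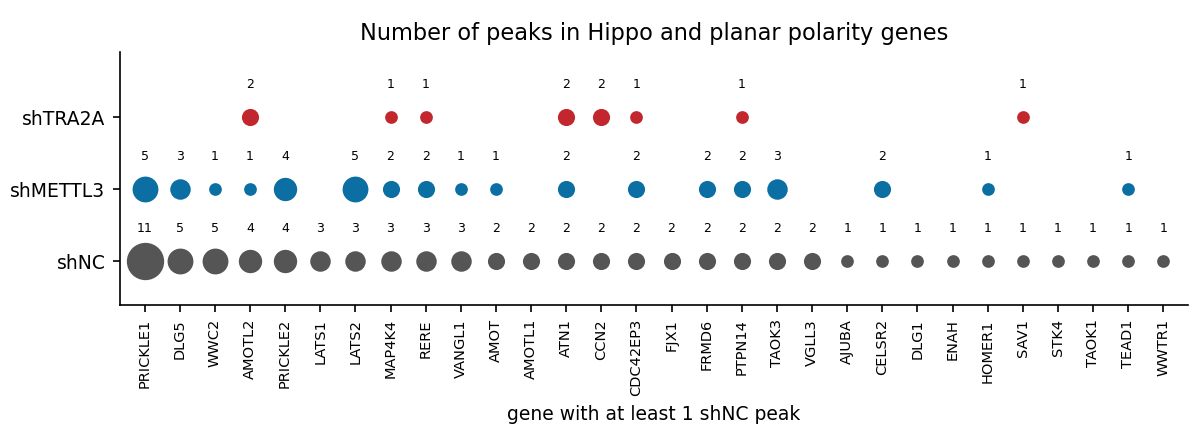
Number of peaks in each of the 30 Hippo and planar polarity genes with a control peak, in the shTRA2A, shMETTL3 and shNC lists, with larger discs for more peaks and the count above each disc. The shTRA2A row has 8 discs and the shMETTL3 row 18.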

How the data were processed

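Per the labels, total RNA was fragmented and made into stranded libraries. HISAT2 2.2.1, featureCounts 2.0.1 and SAMtools on GRCh38 come from the submitters' processing notes. No source used here gives the peak caller or its threshold. The deposited files are BED peak lists, and the score in column 5 is the authors' value per peak, of unstated scale. Another list equals the shTRA2A list byte for byte, matches no label and was not used. Peak lists gave no depth per library.

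Members and lists were chosen with earlier results of these data known. A peak belongs to each coding gene body it touches, so nested genes share peaks, and RefSeq bodies carry no exons. A peak was found if it shared 1 base on the same strand. Overlap and containment used the whole span from first to last base, so any gap inside a wide peak counted as peak. FAT4's direction was taken from its peaks. Coordinates count from 1. A regular peak is 1 block, at most 1000 nt wide and a multiple of 25 nt wide. Analyses used pandas 2.3.3, numpy 2.4.6 and scipy 1.17.1 in Python 3.11.15. Overlaps were tested on simulated data and on the control list against bedtools 2.31.1 (0 peaks differed). All 6 genes and their peaks are named. From each further list, the 4 genes with the best control score among those with and those without a knockdown peak are named by rule, and others were chosen after their values were seen. Alternatives for gene assignment, overlap, strand, score, width, merging and list length were run.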

Additional observations from a re-analysis of the deposited data

How the results depend on the processing

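Of 75 alternative values for 12 results, 62 stayed within the interval of the main share or within 1.5 times the main count. Requiring whole peaks inside the gene body on its main strand, ignoring strand, requiring 50% of the shorter peak, midpoints within 100 nt and merging gave no larger shift. The intervals of the main shares are wide, so staying inside them says little. For the 15.4% of control peaks found in shMETTL3 the interval was 4.36 to 34.9%. With the upper 50% of every list by score, the 6 genes had 5 shTRA2A and 7 shMETTL3 peaks, 0% of the 5 shTRA2A peaks lay on an shMETTL3 peak (main 50%), 3 and 8 Hippo and planar polarity genes had an shTRA2A and an shMETTL3 peak, and 2 other cadherin genes had an shMETTL3 peak. With regular peaks alone, 5 Hippo and planar polarity genes had an shTRA2A peak. With each list limited to the length of the shortest, the 6 genes had 7 shMETTL3 and 13 control peaks, 12.5% of shTRA2A peaks lay on an shMETTL3 peak, 8 Hippo and planar polarity genes had an shMETTL3 peak, and 3 and 1 other cadherin genes had an shTRA2A and an shMETTL3 peak. These settings remove peaks by construction. The share of FAT1 and FAT4 peaks of the control found was 22.2 to 46.2% in shTRA2A and 5.56 to 17.4% in shMETTL3 over the alternatives, and 38.1% and 19.0% for FAT1 alone. The share of their shTRA2A peaks on a control peak was 75 to 100%. No paired analysis was possible because each condition has 1 library pair. Counting error is the only error these lists give, and their depth is unknown.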

Other observations

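Other cadherin genes, taken by symbol (classical cadherins, protocadherins, desmosomal cadherins, calsyntenins and cadherin-related genes), were counted in the same way. Of 85 such genes 29 had a control peak, and 5 of these had an shTRA2A peak, 17.2% (5.85 to 35.8%), and 7 an shMETTL3 peak, 24.1% (10.3 to 43.5%), beside 28.7% and 48.6% of all coding genes with a control peak. The 29 include 15 protocadherin alpha genes that share the same 2 control peaks. With these counted once, a choice made after the data were seen, 5 of 15 genes had an shTRA2A peak, 33.3% (11.8 to 61.6%), and 7 an shMETTL3 peak, 46.7% (21.3 to 73.4%), so the lower shares above rest on the repeated peaks.

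CDH11, a mesenchymal cadherin, had 1 shTRA2A, 1 shMETTL3 and 4 control peaks, and 1 of its control peaks (best score 43.2) was overlapped in each knockdown list. PCDH17 and PCDH10, both protocadherins, had 1, 0 and 3 and 2, 1 and 3 peaks, with 1 and 2 control peaks overlapped in shTRA2A and 0 in shMETTL3. PCDHB10 had 0, 2 and 2. PCDH7 had 4 control peaks, PCDHB14 had 2 and PCDHB5 had 1 (score 391, on the minus strand), with none in either knockdown list, as for PCDHA1 and its neighbours. DSG2, a desmosomal cadherin, had 0 shTRA2A, 3 shMETTL3 (best score 20.0) and 0 control peaks. Having no control peak is nothing particular to DSG2. Of 13 other cadherin genes with an shMETTL3 peak 6 had none, as had 1282 of 3421 coding genes. The DSG2 peaks also lay on both strands, 2 plus and 1 minus.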
